A study of Mus musculus with 4 samples.

Results

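The 35 genes described here encode the proteins that carry glucose and lactate across the cell membrane, the enzymes of glycolysis and their regulators, and the enzymes of the pentose phosphate pathway. They were chosen by name from the 22138 genes of the deposited expression table; the rule uses no measured value, but earlier results of these data were known when it was written. Of the 35 names, 34 matched a symbol of the table, and Pkm was matched by its identifier (ENSMUSG00000032294), which the table lists under the older symbol Pkm2. Pgm1 and Pgm2 are written as in the table; the current annotation exchanges those symbols, so the table's Pgm1 (ENSMUSG00000029171) is now Pgm2 and the table's Pgm2 (ENSMUSG00000025791) is now Pgm1.

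The cells were TT2, a female line of mouse embryonic stem cells with a C57BL/6xCBA background, cultured without feeders in medium with serum and LIF, a cytokine that maintains the undifferentiated state. Both groups had 2 libraries each and received small interfering RNA (siRNA) at 100 nM and again at 50 nM 24 hours later, either a control siRNA or an siRNA against Hnrnpk, and were harvested about 72 hours after the second dose. The design text calls the 2 libraries of a group biological replicates; all 4 came from 1 cell line, while the siRNA sequences and their number are not stated in the labels. On the RNA that was sequenced the labels differ, naming both ribosomal RNA depletion and poly(A) selection.

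Glycolysis splits glucose into pyruvate through a chain of cytosolic enzymes and yields ATP, and lactate dehydrogenase can turn pyruvate into lactate, which monocarboxylate transporters export. The pentose phosphate pathway branches off after the hexokinase step: its oxidative arm makes NADPH, and its non-oxidative arm interconverts sugar phosphates and supplies ribose for nucleotides. Naive mouse embryonic stem cells run both glycolysis and mitochondrial respiration, and many glycolytic genes are known targets of the hypoxia-inducible factors (HIF) and of MYC proteins.

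Promoter stretches are shown for 6 members that differ in what the knockdown data show: Ldha, Slc16a3, Pgk1, Hk2 and Tkt were lower after Hnrnpk siRNA and Rpe was higher. Each stretch ends at the base before a RefSeq transcription start (GRCm38.p6) and is written 5′ to 3′ on the gene's strand. Capitals mark ACGTG or its reverse complement CACGT, a form of the core of the element that HIF binds. The other form, GCGTG, was neither marked nor searched, and the Tkt stretch holds it. Runs of CACGTG are also the E-box that MYC proteins can bind. The stretches lie at chr7:46845624-46845803 (Ldha, plus strand, 180 bases), chr11:120948947-120949066 (Slc16a3, plus strand, 120 bases), chrX:106186920-106187099 (Pgk1, plus strand, 180 bases), chr6:82774455-82774574 (Hk2, minus strand, 120 bases), chr14:30549011-30549130 (Tkt, plus strand, 120 bases) and chr1:66700711-66700830 (Rpe, plus strand, 120 bases).
Ldha: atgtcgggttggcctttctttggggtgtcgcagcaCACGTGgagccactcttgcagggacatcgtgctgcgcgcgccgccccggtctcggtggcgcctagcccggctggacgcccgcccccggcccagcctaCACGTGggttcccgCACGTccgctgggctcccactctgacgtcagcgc
Slc16a3: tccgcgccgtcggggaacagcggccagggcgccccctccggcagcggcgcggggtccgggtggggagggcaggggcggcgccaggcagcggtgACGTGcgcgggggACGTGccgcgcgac
Pgk1: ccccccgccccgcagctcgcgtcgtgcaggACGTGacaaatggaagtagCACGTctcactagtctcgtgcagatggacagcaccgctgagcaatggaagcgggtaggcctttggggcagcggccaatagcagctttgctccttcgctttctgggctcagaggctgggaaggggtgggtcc
Hk2: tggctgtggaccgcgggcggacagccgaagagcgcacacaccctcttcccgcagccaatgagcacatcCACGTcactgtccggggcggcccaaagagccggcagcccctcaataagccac
Tkt: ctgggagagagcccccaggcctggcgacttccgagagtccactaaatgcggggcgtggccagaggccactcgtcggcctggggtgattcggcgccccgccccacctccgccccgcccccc
Rpe: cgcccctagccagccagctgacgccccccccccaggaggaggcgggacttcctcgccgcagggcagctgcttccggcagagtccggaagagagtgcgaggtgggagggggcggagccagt
Ldha carried 3 marked runs, 2 of them CACGTG; Slc16a3 and Pgk1 carried 2 each and Hk2 carried 1. No run was marked in the stretches of Tkt and Rpe. The longer stretches were printed for Ldha and Pgk1 because motifs lie there: in the last 120 bases Ldha had 2 runs, 1 of them CACGTG, and Pgk1 had 0, and the stretch before a second RefSeq start of Ldha had 0 at either length. In 180 bases the counts of Slc16a3, Hk2, Tkt and Rpe were the same as in 120.

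The same motifs were searched on both strands of the RefSeq windows of 300 bases (250 before and 50 after a start), which exist for 34 of the 35 members. The motif ACGTG was present in 19.6% of all 32851 windows and, counted over any window of a gene, in 21.8% of 27025 genes. It was present in 22 of the members' 52 windows (42.3%) and, counted over any window of a gene, in 18 of the 34 members (52.9%). Those were 11 of the 20 members called lower, 1 of the 7 called higher with a window, and 6 of the 7 that were not called. CACGTG, which contains ACGTG, was found in 8.09% of all genes and in 5 members, namely Pfkm, Ldha, Slc16a1, Pfkfb3 and Pfkfb2, of which the first 4 were lower and Pfkfb2 was higher after Hnrnpk siRNA. A match describes letters in a window and not a bound site, and the search was chosen after the members' values had been seen.

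Values are RPKM, reads scaled to transcript length and to the mapped reads of the library. Levels can therefore be set side by side between genes within a library, except where a gene shares sequence with other genes. Several members do, as given below, and their ranks, sums and shares are uncertain. Hnrnpk, the targeted gene, measured 236 and 226 RPKM with control siRNA and 68.0 and 70.5 RPKM with Hnrnpk siRNA. The relative depth of the libraries, read from low values, lay between 0.882 and 1 with control replicate 1 set to 1, and absolute depth is unknown. Markers were examined because cell states can change with the knockdown. Summed over 10 embryonic stem cell markers, the level was 3290 and 3125 RPKM in the controls and 4170 and 4529 RPKM after Hnrnpk siRNA; 4 were called higher, 2 lower and 4 were not called, and most of the rise of the sum lay in Dppa5a, at 1320 and 1276 and then 2164 and 2451 RPKM. The 5 two-cell-like markers summed to 0.490 and 0.459 RPKM in the controls and to 22.7 and 25.8 RPKM after Hnrnpk siRNA, and all 5 passed the filter only through their level after the knockdown, so that their calls add nothing to the sum. Primitive endoderm markers went from 17.8 and 17.6 to 39.6 and 40.3 RPKM over 8 genes, with 5 of 6 tested called higher, of which Pdgfra passed the filter only through the knockdown libraries, and 1 lower, and trophectoderm markers from 30.6 and 36.1 to 68.7 and 73.3 RPKM over 8 genes, with 5 of 5 tested called higher. Fibroblast markers summed to 10.4 and 8.79 RPKM in the controls and to 5.05 and 5.31 RPKM after Hnrnpk siRNA over 8 genes, with 2 of 3 tested called lower, and 5 of them (Col1a2, Col3a1, Postn, Lum and Dcn) were under 0.1 RPKM in every library. The part of these shifts in the results that follow was not tested.

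Of the 16 enzymes from hexokinase to pyruvate, 12 were lower after Hnrnpk siRNA, as were Ldha and both lactate transporters, while the glucose transporter Slc2a3 and 3 of the 4 enzymes of the non-oxidative pentose phosphate arm were higher. All 35 members passed the filter of a mean of at least 0.5 RPKM. A call means a Benjamini-Hochberg adjusted p under 0.05 over the 12486 genes tested, by limma on log2(RPKM + 0.5). By that rule 28 members (80%) were called, against 67.2% of all genes tested. The members called lower numbered 20 (57.1%), where 35% of all genes were called lower. The members called higher numbered 8 (22.9%), against 32.2% of all genes. The median log2 change of the 35 members was -0.30, and that of all genes tested was -0.015. Calls of 0.5 or more on the log2 scale were made for 11 members downward (31.4%, against 18% of genes) and for 3 upward (8.57%, against 13.7%). In 33 members (94.3%) the groups did not overlap, the Hnrnpk siRNA libraries being both above the controls in 10 and both below in 23; in the table as a whole 84.7% of tested genes did not overlap, so that feature is common here. These are transcript levels in bulk RNA, where fewer cells of a type and less RNA per cell cannot be told apart.

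**Figure D1:**
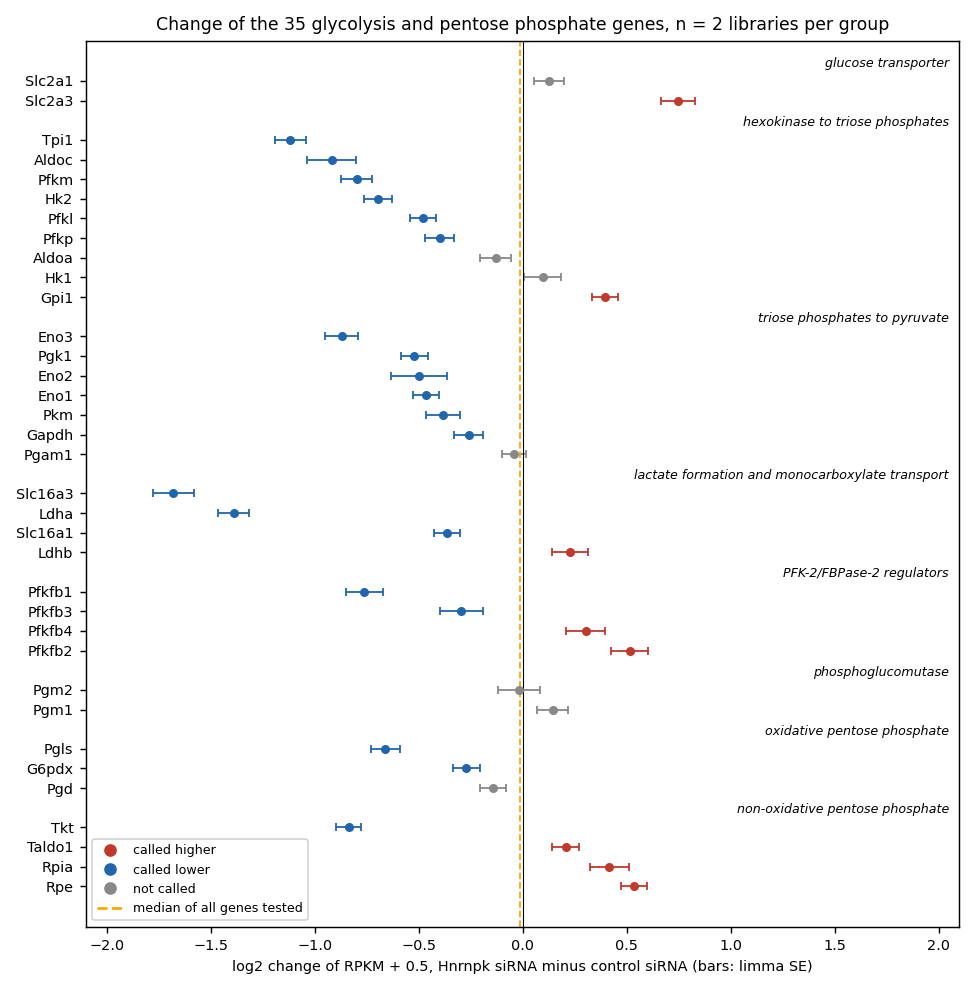
Log2 change of RPKM + 0.5 (horizontal axis, Hnrnpk siRNA minus control siRNA) for each of the 35 genes, ordered within pathway step; points are limma estimates from 2 libraries per group, bars are the standard error, and colours give the call. The lactate exporter Slc16a3 at -1.68 and Ldha at -1.39 lie farthest to the left and Slc2a3 at 0.75 farthest to the right.

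Glucose enters through Slc2a1 and Slc2a3, which encode the facilitative transporters GLUT1 and GLUT3. Slc2a3 (GRCm38 chromosome 6, 122727809 to 122801640, minus strand, protein coding) was listed at 222 and 189 RPKM in the controls and at 348 and 340 RPKM after Hnrnpk siRNA. Both knockdown libraries lay above both controls, the largest rise among the members (log2 change 0.75, SE 0.0829, limma adjusted p = 3.8e-05). Slc2a1 was listed at 214 and 195 RPKM in the controls and at 218 and 228 RPKM after Hnrnpk siRNA. Its groups did not overlap, yet the difference of their means was only of the size of the spread between the controls. No call was made (log2 change 0.13, SE 0.0708, limma adjusted p = 0.137). The call was made only when each library's trend on GC content was removed (0.17, limma adjusted p = 0.0463), and the other alternatives gave up to 0.777. In the controls both transporters stood at nearly the same level, Slc2a3 taking 50.9% and 49.2% of their summed RPKM, and after Hnrnpk siRNA that share was 61.4% and 59.9%.

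Hexokinase phosphorylates glucose and so traps it in the cell. Hk2, the highest hexokinase here, stood at 41.1 and 43.9 RPKM in the controls and at 27.0 and 25.1 RPKM after Hnrnpk siRNA. It was lower in both knockdown libraries (log2 change -0.70, SE 0.0681, limma adjusted p = 1.76e-05). Hk1, at 14.5 and 12.0 RPKM in the controls, was at 14.2 and 14.1 RPKM after Hnrnpk siRNA; the groups overlapped and no call was made (log2 change 0.095, SE 0.0894). Hk2 thus took 73.9% and 78.5% of the summed hexokinase RPKM in the controls and 65.5% and 64.0% after the knockdown. Glucose-phosphate isomerase, Gpi1, which makes fructose phosphate from glucose phosphate, was the only enzyme of the stretch from hexokinase to the triose phosphates to be called higher. It was at 114 and 113 RPKM in the controls and at 152 and 148 RPKM after Hnrnpk siRNA (log2 change 0.40, SE 0.0609, limma adjusted p = 0.000308).

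All 3 phosphofructokinases, the enzymes of the committed step of glycolysis, were lower, where 35% of all genes tested were called lower. Pfkl, the liver-type subunit and the highest of the 3, was at 59.0 and 56.2 RPKM in the controls and at 40.8 and 41.5 RPKM after Hnrnpk siRNA (log2 change -0.48, SE 0.0617). The muscle-type subunit Pfkm fell most, from 28.1 and 25.4 RPKM to 15.7 and 14.6 RPKM (log2 change -0.80, SE 0.0743, limma adjusted p = 1.28e-05). Pfkp, the platelet-type subunit, fell with a log2 change of -0.40. The Pfkl share of the 3 was 56.7% and 57.6% in the controls and 59.2% and 60.6% after the knockdown, so the mix of subunits moved little beside the fall in each.

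Aldolase splits the sugar bisphosphate, and triose phosphate isomerase (Tpi1) interconverts the 2 products. Aldoa, which held at least 97.5% of the summed aldolase RPKM in every library, was at 574 and 532 RPKM in the controls and at 502 and 508 RPKM after Hnrnpk siRNA. That difference was not called (log2 change -0.13, SE 0.0732, limma adjusted p = 0.14), although under quantile normalization it was (-0.32, limma adjusted p = 0.00277), and the other alternatives gave up to 0.663. Aldoc, the brain-type aldolase, was at 14.7 and 11.1 RPKM in the controls and at 6.16 and 6.94 RPKM after Hnrnpk siRNA (log2 change -0.92, SE 0.119).
Tpi1 (GRCm38 chromosome 6, 124810586 to 124814296, minus strand, protein coding) had the largest fall of this stretch of the pathway. It went from 223 and 197 RPKM in the controls to 96.8 and 95.8 RPKM, lower by a factor of 2.18 (log2 change -1.12, SE 0.0737, limma adjusted p = 1.64e-06). The knockdown libraries were nearly equal and far below both controls.

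From the triose phosphates to pyruvate 6 of 7 genes were called lower, against 35% of all genes tested. Pkm, pyruvate kinase, which makes the pyruvate, had the highest level of all members, at 1375 and 1325 RPKM in the controls and 1001 and 1069 RPKM after Hnrnpk siRNA (log2 change -0.38, SE 0.0811, limma adjusted p = 0.0022). The table gives 1 value per gene, so the M1 and M2 splice forms of Pkm were not separated. Eno1, the main enolase, was at 190 and 185 RPKM in the controls and at 135 and 137 RPKM after the knockdown (log2 change -0.46, SE 0.0618, limma adjusted p = 0.000124). Its muscle paralog Eno3 fell further, from 40.9 and 47.7 RPKM to 23.2 and 24.6 RPKM (log2 change -0.87, SE 0.0809). Eno2, the neuronal paralog, was low, between 1.33 and 2.60 RPKM in all libraries, with a log2 change of -0.50 (SE 0.134) that was -0.28 without control replicate 1 and -0.72 without control replicate 2. Its call and that of Pkm were lost when no filter on low values was used (limma adjusted p = 0.0637 and 0.0527).

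Phosphoglycerate kinase, Pgk1, which makes ATP, was at 29.7 and 29.3 RPKM in the controls and at 19.8 and 21 RPKM after Hnrnpk siRNA (log2 change -0.52, SE 0.0644, limma adjusted p = 7.56e-05). Gapdh, often taken as a reference gene, was at 46.1 and 44.9 RPKM in the controls and at 36.0 and 39.9 RPKM after the knockdown (log2 change -0.26, SE 0.069, limma adjusted p = 0.00765). That call was lost without Hnrnpk siRNA replicate 1 (-0.19, limma adjusted p = 0.0732). Phosphoglycerate mutase, Pgam1, stood between 56.7 and 59.0 RPKM in all 4 libraries and was not called (log2 change -0.042, SE 0.0595).

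**Figure D2:**
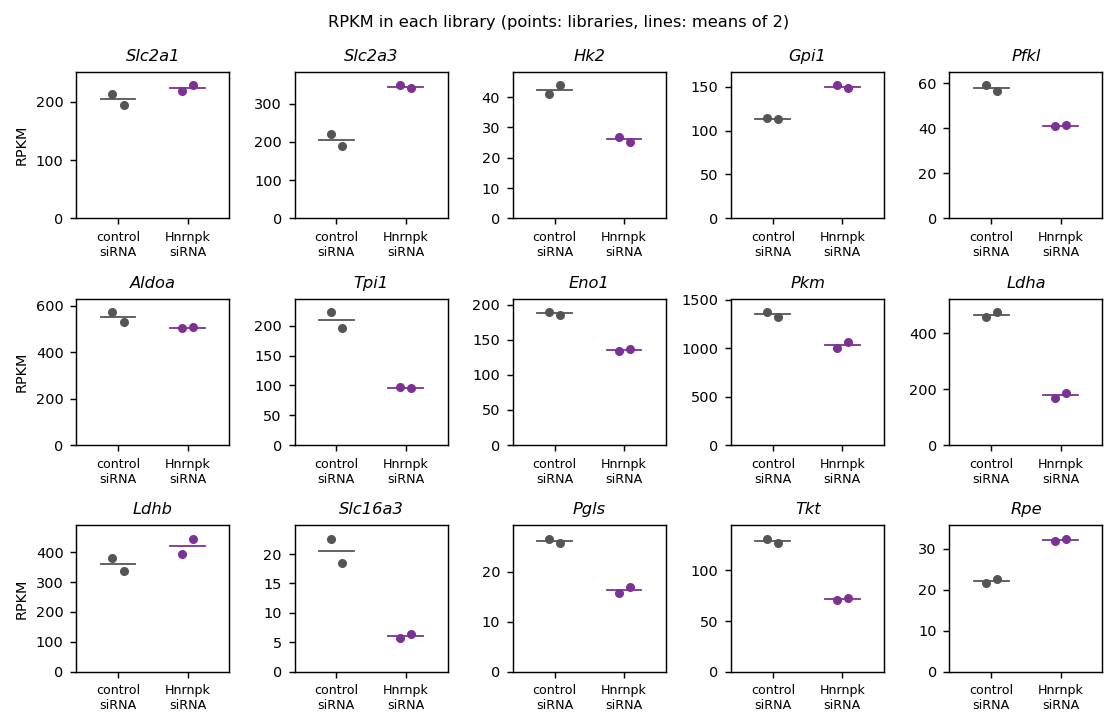
RPKM (vertical axes, each from 0) of 15 of the genes in each of the 4 libraries; points are libraries and lines are the means of 2. Ldha, Slc16a3, Tpi1 and Tkt show both Hnrnpk siRNA libraries far below the controls, at 168 and 187 RPKM against 456 and 476 RPKM for Ldha, and the libraries of a group lie close to each other.

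The largest falls of all were in the formation and export of lactate. Ldha (GRCm38 chromosome 7, 46841475 to 46855627, plus strand, protein coding) encodes the lactate dehydrogenase subunit that favours lactate formation. It was at 456 and 476 RPKM in the controls and at 168 and 187 RPKM after Hnrnpk siRNA, lower by a factor of 2.62 (log2 change -1.39, SE 0.0743, limma adjusted p = 5.5e-07). Slc16a3 (GRCm38 chromosome 11, 120948480 to 120960868, plus strand, protein coding) encodes MCT4, an exporter of lactate. It went from 22.6 and 18.6 RPKM to 5.75 and 6.36 RPKM, lower by a factor of 3.40, the largest change of any member (log2 change -1.68, SE 0.0984, limma adjusted p = 8.91e-07). For both genes the gap between the groups exceeded the spread within them.

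The paralogs at these steps had smaller log2 changes. Ldhb, whose subunit favours the conversion of lactate to pyruvate, was at 381 and 338 RPKM in the controls and at 395 and 446 RPKM after Hnrnpk siRNA (log2 change 0.23, SE 0.0871, limma adjusted p = 0.0421). That rise was weak: the call was lost under 6 of 14 alternatives, among them leaving out control replicate 2 (0.14, limma adjusted p = 0.254) and leaving out Hnrnpk siRNA replicate 2 (0.14, limma adjusted p = 0.225). Slc16a1, encoding the widely expressed transporter MCT1, fell with a log2 change of -0.36 (SE 0.0612), from 54.3 and 56.1 RPKM to 43.4 and 42.1 RPKM. The make-up of both steps therefore shifted. The ratio of Ldha to Ldhb was 1.20 and 1.41 in the controls and 0.426 and 0.420 after the knockdown. Ldha took 54.5% and 58.5% and then 29.9% and 29.6% of their summed RPKM. Other genes match 55.0% of the Ldha and 76.8% of the Ldhb transcript, so the height of this ratio and share is uncertain. Slc16a3 took 29.4% and 24.8% of the summed RPKM of both transporters in the controls and 11.7% and 13.1% after Hnrnpk siRNA. With 2 libraries against 2 the smallest p an exact permutation test of a single value can give is 0.333, and each of these shares reached it (two-sided).

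**Figure D3:**
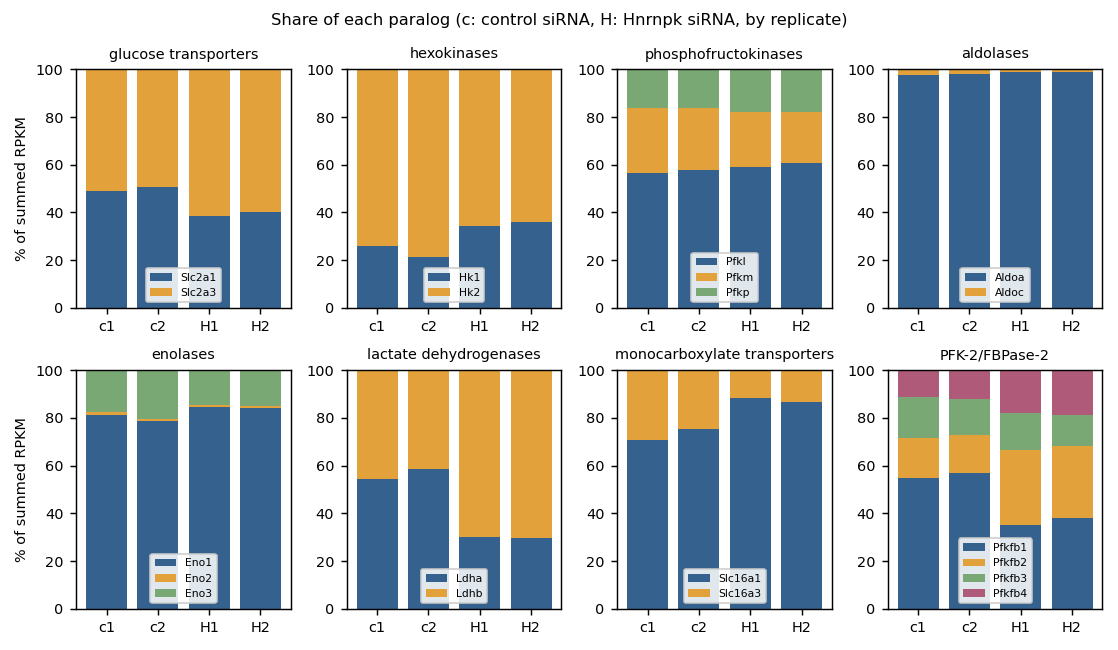
Share of each paralog in the summed RPKM of its family (vertical axis, percent) in the 4 libraries (c, control siRNA; H, Hnrnpk siRNA; replicates 1 and 2). The Ldha share of the lactate dehydrogenases goes from 54.5% and 58.5% to 29.9% and 29.6%, and the Pfkfb1 share of its family from 55.0% and 56.8% to 35.3% and 38.0%, while the phosphofructokinase and aldolase mixes change by a few percentage points.

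The 4 Pfkfb genes encode the bifunctional kinase and phosphatase that sets the level of the sugar bisphosphate activating phosphofructokinase. All were low, none above 5.45 RPKM, and all 4 were called, in both directions, against 67.2% of all genes tested. Pfkfb1 was at 5.45 and 5.33 RPKM in the controls and at 2.78 and 3.17 RPKM after Hnrnpk siRNA (log2 change -0.76, SE 0.0876, limma adjusted p = 4.75e-05). Pfkfb2 was at 1.66 and 1.52 RPKM in the controls and at 2.45 and 2.52 RPKM after the knockdown (log2 change 0.51, SE 0.0888, limma adjusted p = 0.000643). Pfkfb3, the form with the highest kinase over phosphatase activity, had a log2 change of -0.30 (SE 0.103), and Pfkfb4 one of 0.30 (SE 0.0925). Those smaller changes were less stable: the Pfkfb3 call was lost under 5 of 14 alternatives, including without control replicate 1, without Hnrnpk siRNA replicate 1 and without Hnrnpk siRNA replicate 2, and the Pfkfb4 call without either Hnrnpk siRNA library. Without a library the limma adjusted p reached at most 0.198 for Pfkfb3 and 0.17 for Pfkfb4. Pfkfb1 took 55.0% and 56.8% of the summed RPKM of the family in the controls and 35.3% and 38.0% after the knockdown.

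Phosphoglucomutase links glycolysis to glycogen, and neither gene of it was called. The table's Pgm1 was at 16.1 and 14.4 RPKM in the controls and at 16.8 and 16.9 RPKM after Hnrnpk siRNA (log2 change 0.14, SE 0.0732), and without control replicate 1 it was called higher (0.22, limma adjusted p = 0.0237). The table's Pgm2 was at 15.8 and 12.6 RPKM and at 14.5 and 13.4 RPKM, with overlapping groups (log2 change -0.017, SE 0.1).

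The oxidative arm of the pentose phosphate pathway was lower in 2 of its 3 genes, where 35% of all genes tested were called lower. G6pdx, the glucose-phosphate dehydrogenase that commits sugar to the pathway, was at 50.9 and 54.4 RPKM in the controls and at 43.4 and 43.6 RPKM after Hnrnpk siRNA (log2 change -0.27, SE 0.0633, limma adjusted p = 0.00392). Pgls, the lactonase, fell further, from 26.7 and 25.8 RPKM to 15.8 and 17.0 RPKM (log2 change -0.66, SE 0.0681, limma adjusted p = 2.38e-05). Pgd, the second dehydrogenase, was at 39.9 and 40.9 RPKM in the controls and at 36.1 and 37.0 RPKM, below both controls but not called (log2 change -0.14, SE 0.061, limma adjusted p = 0.0621); it was called under quantile normalization (-0.19), with GC trends removed (-0.17) and with no filter on low values (-0.14).

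The non-oxidative arm was split. Transketolase, Tkt, which moves carbon units between sugar phosphates, fell from 132 and 127 RPKM in the controls to 70.9 and 73.2 RPKM after Hnrnpk siRNA (log2 change -0.84, SE 0.0617, limma adjusted p = 3.12e-06). The other 3 enzymes rose, where 32.2% of all genes tested were called higher. Ribulose-phosphate epimerase, Rpe, went from 21.7 and 22.6 RPKM to 32.0 and 32.6 RPKM (log2 change 0.53, SE 0.0627, limma adjusted p = 5.46e-05). Taldo1, transaldolase, which works beside transketolase, was at 194 and 183 RPKM in the controls and at 215 and 220 RPKM after the knockdown. Its change of 0.21 (SE 0.0653, limma adjusted p = 0.018) lost its call under quantile normalization (0.084), without control replicate 2 (0.17) and without Hnrnpk siRNA replicate 2 (0.19), with a limma adjusted p of at most 0.232. Rpia, the ribose-phosphate isomerase, was the lowest member, at 0.617 and 0.588 RPKM in the controls and at 0.972 and 0.970 RPKM after Hnrnpk siRNA (log2 change 0.42, SE 0.0934). Sequence in 44 other genes matched 14.4% of its transcript, and whether their reads bear on so low a level was not tested. The ratio of the Hnrnpk siRNA mean to the control mean was 0.558 for Tkt and 1.15 for Taldo1.

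Summed over the genes of a step, RPKM went down in every stretch of glycolysis after glucose uptake. The transporters summed to 436 and 384 RPKM in the controls and to 566 and 568 RPKM after Hnrnpk siRNA, a ratio of means of 1.38. The stretch from hexokinase to the triose phosphates had a ratio of 0.828, that from the triose phosphates to pyruvate 0.764, and lactate formation and export 0.718. The ratio of means was 0.842 for the Pfkfb genes, 0.809 for the oxidative and 0.949 for the non-oxidative pentose phosphate arm. It was 1.05 for the phosphoglucomutases, the only step whose groups overlapped. Sums are set by the genes with the highest levels: Pkm alone was at 1001 RPKM or more in every library. All members together summed to 4686 and 4462 RPKM in the controls and to 3773 and 3929 RPKM after the knockdown, which is 1.30% and 1.23% and then 0.999% and 1.01% of the summed RPKM of the table. Each step sum other than the phosphoglucomutases gave an exact permutation p of 0.333, the smallest the design allows.

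Several members share sequence with other genes, most often processed pseudogenes, and the counting of reads that match several places is not stated in the labels. Their levels are therefore uncertain. With matches of 95% identity across 100 bases or longer counted, the share of the longest coding transcript found in other genes was 85.6% for Eno1, 76.8% for Ldhb, 68.8% for Pgk1, 65.5% for Pkm, 55.0% for Ldha, 43.1% for Pgam1, 36.1% for Gapdh, 27.3% for Gpi1, 26.6% for Pfkfb2 and 20.5% for Rpe. For Gapdh 144 other genes shared sequence, 136 of them pseudogenes. The copy of Eno1 listed as Gm5506 stood at 92.9 and 91.7 RPKM in the controls and at 71.2 and 73.1 RPKM after Hnrnpk siRNA, lower like Eno1, and the Gpi1 pseudogene Gm1840 stood at 20.6 and 20.2 and at 29.5 and 28.0 RPKM, higher like Gpi1. These 2 copies were named after their values were seen. The remaining 25 members, Slc16a3, Tpi1, Tkt, Pfkm, Hk2 and Slc2a3 among them, shared at most 20% of their transcript; of those 25, 15 were called lower and 4 higher, with a median log2 change of -0.36.

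Genes near the member with the largest rise and near Tpi1 were examined after those values were seen. Within 100 kb of Slc2a3 lay 4 tested genes. Nanog, a pluripotency factor, was at 204 and 190 RPKM in the controls and at 353 and 342 RPKM after Hnrnpk siRNA (log2 change 0.82, SE 0.0682, limma adjusted p = 6.56e-06), a change of about the size of that of Slc2a3. On the other side of Nanog, Dppa3 went from 74.2 and 70.6 RPKM to 39.2 and 42.2 RPKM (log2 change -0.82). Foxj2 and Necap1 lay on the opposite side of Slc2a3. Foxj2 had a log2 change of -0.30, which was not called without Hnrnpk siRNA replicate 2 (-0.27), and Necap1 one of 0.26. Changes at this locus thus went both ways. Of 13 tested genes within 100 kb of Tpi1, 7 were called lower, among them the member Eno2, 3 were called higher and 3 were not called. The largest rise was that of Atn1 (log2 change 0.75). Of all genes tested, 35% were called lower and 32.2% higher.

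Neighbouring pathways give the setting of these changes. Their genes were listed by role, with earlier results of these data known. Their counts stand beside a background of 32.2% of all tested genes called higher and 35% called lower. Among 25 tested genes of the same families or of glycogen and hexose entry, 9 were higher and 13 lower, with a median log2 change of -0.27. Pklr, the liver and red cell pyruvate kinase, and Pygb, the brain glycogen phosphorylase, had log2 changes of -0.89 and -0.87, while the glycogen branching enzyme Gbe1 and the liver phosphorylase Pygl had 0.81 and 0.80. Pklr was at 1.22 and 1.23 RPKM in the controls and at 0.394 and 0.469 RPKM after Hnrnpk siRNA. It passed the filter only through the controls, as did Ldhd among the 13 lower. In gluconeogenesis, the reverse route, 3 of 6 tested genes were higher and 3 lower. Both fructose bisphosphatases rose from low levels: Fbp2 from 0.623 and 0.584 RPKM to 3.22 and 3.76 RPKM (log2 change 1.85), and Fbp1 from 0.0472 and 0.0457 RPKM to 0.907 and 1.08 RPKM (log2 change 1.45). Fbp1 passed the filter only through its level after Hnrnpk siRNA. Pck2, the mitochondrial phosphoenolpyruvate carboxykinase, went from 23.5 and 31.3 RPKM to 11.5 and 11.7 RPKM (log2 change -1.19), and the glucose-phosphate transporter Slc37a4 had a log2 change of -0.69.

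Pyruvate dehydrogenase admits pyruvate to the mitochondrial citric acid cycle, and its kinases switch it off. Pdk1, one of those kinases and a known HIF target, was at 34.5 and 32.1 RPKM in the controls and at 5.96 and 5.69 RPKM after Hnrnpk siRNA (log2 change -2.42, SE 0.071, limma adjusted p = 2.34e-08), a larger fall than that of any of the 35 genes. Pdk2 fell as well (-0.82), and so did the phosphatase Pdp1 (-0.64), while the subunit Pdhb rose (0.70). The kinases went both ways: Pdk3 and Pdk4, named outside the rule after their values were seen, had -0.23 and 0.42. Of 12 tested genes of the complex and its regulators, 4 were higher and 5 lower. In the citric acid cycle 3 of 16 genes were higher and 7 lower, with a median of -0.069. Fumarase, Fh1, had a log2 change of -0.66, and the succinyl-CoA ligase subunits Suclg2 and Sucla2 had -0.59 and 0.44.

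A list of 11 genes joined 2 side branches of glycolysis, and 8 of its genes were lower, with a median of -0.44. It held 8 genes of serine synthesis, which draws on phosphoglycerate, and of the folate steps that follow, 6 of them lower, and 3 glycerol phosphate dehydrogenases, 2 of them lower. Phgdh, its first enzyme, went from 118 and 121 RPKM to 44.8 and 50.6 RPKM (log2 change -1.32, SE 0.0724), and Mthfd1l and Psph followed with -1.09 and -0.80. Gpd1, which turns a triose phosphate into glycerol phosphate, was under 1 RPKM and had -0.57. It passed the filter only through the controls, at 0.844 and 0.776 RPKM against 0.405 and 0.364 RPKM after Hnrnpk siRNA. Of 8 other tested pentose phosphate genes 3 were higher and 3 lower. Ribokinase, Rbks, rose from 1.65 and 1.85 RPKM to 5.52 and 6.16 RPKM (log2 change 1.49), the transketolase-like gene Tktl1 rose with a log2 change of 0.94, and the phosphoribosyl pyrophosphate synthetases Prps2 and Prps1 fell with -0.78 and -0.47.

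**Figure D4:**
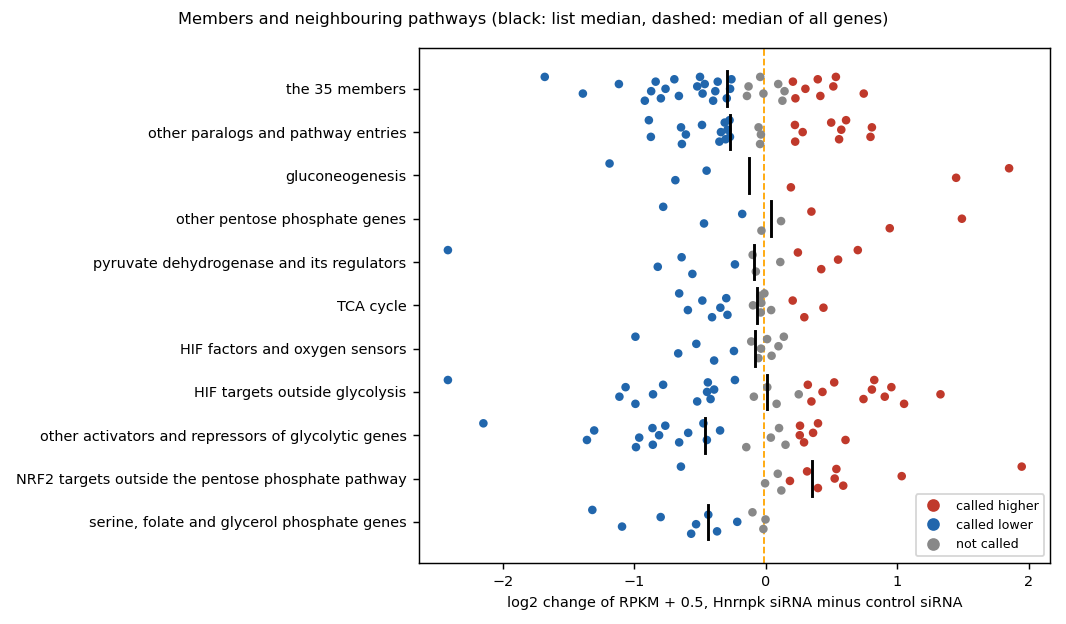
Log2 change of RPKM + 0.5 (horizontal axis, Hnrnpk siRNA minus control siRNA) of each tested gene in the 35 members and in 10 lists of related genes; points are genes coloured by call, black bars are list medians and the dashed line is the median of all genes tested at -0.015. The median of the members is -0.30, that of the serine, folate and glycerol phosphate genes -0.44 and that of the NRF2 targets 0.36, and most lists hold genes of both directions.

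Genes that act on glycolytic transcription were listed too. Among 12 HIF factors and oxygen sensors 5 were lower, a share near that of all genes tested (35%), and the others were not called. The prolyl hydroxylases Egln3 and Egln1, which mark HIF for destruction, had log2 changes of -0.99 and -0.39 (-0.24 for Egln1 without control replicate 1). The Egln3 controls lay apart, at 12.2 and 7.77 RPKM against 4.7 and 4.6 RPKM after Hnrnpk siRNA. Arnt2 and Hif3a had log2 changes of -0.67 and -0.53. Hif1a, named for its role after its values were seen, was at 42.6 and 42.7 RPKM in the controls and at 45.5 and 40.6 RPKM after the knockdown, with no call (log2 change 0.011, SE 0.0703). HIF targets outside glycolysis went both ways, 11 of 27 tested higher and 12 lower with a median of 0.012. Among those 11, Bhlhe41 passed the filter only through the knockdown libraries. It was at 0.296 and 0.191 RPKM in the controls and at 0.877 and 0.902 RPKM after Hnrnpk siRNA. Besides Pdk1, the largest changes of that list were those of Ddit4, an inhibitor of mTOR signalling (1.33), the carbonic anhydrase Car12 (-1.11) and the mitophagy receptor Bnip3 (-1.07, SE 0.199). The Bnip3 controls lay apart, at 13.5 and 7.5 RPKM against 4.41 and 4.68 RPKM after Hnrnpk siRNA, and without control replicate 1 its log2 change was -0.66.

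Of 24 tested other activators and repressors of glycolytic genes, 14 were lower and 6 higher, with a median of -0.46. Foxk2, a forkhead factor that induces glycolytic enzymes, went from 40.7 and 34.3 RPKM to 8.14 and 7.95 RPKM (log2 change -2.15, SE 0.0854). The nuclear receptor Esrra had a log2 change of -1.36, Txnip, an inhibitor of glucose uptake, -1.31, and the glucose-sensing factor Mlxipl -0.99. The Txnip controls lay apart, at 70.0 and 48.7 RPKM against 23.1 and 23.6 RPKM after Hnrnpk siRNA. The 3 MYC genes of the list were named outside the rule, after their values were seen. Mycn went from 79.1 and 84.0 RPKM to 42.0 and 41.2 RPKM (log2 change -0.96), and Mycl1 from 9.04 and 7.85 RPKM to 4.36 and 4.48 RPKM (-0.86). Myc was at 18.3 and 34.3 RPKM in the controls and at 39.2 and 37.8 RPKM after Hnrnpk siRNA (log2 change 0.61, SE 0.214), with a wide gap between the controls; its call was lost without control replicate 1 (0.16), without Hnrnpk siRNA replicate 1 (0.58) and with no filter on low values. NRF2, an activator of the oxidative arm, has further targets outside the pathway; 8 of 12 tested were higher and 1 was lower, with a median of 0.36. Heme oxygenase, Hmox1, was at 80.9 and 96.4 RPKM in the controls and at 329 and 355 RPKM after the knockdown (log2 change 1.95), Nqo1 had 1.04, Gclm 0.59 and Gstm1 -0.64. In the same libraries G6pdx, Pgls and Tkt were lower and Pgd was not called. Taldo1 was higher, with a call that was lost under 3 of 14 alternatives.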

How the data were processed

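RNA-seq of 2 control siRNA and 2 Hnrnpk siRNA libraries was used as 1 table of RPKM values per gene that the authors deposited, with a column per library. The submitters' processing notes name BWA, SAMtools and the mouse build mm9; the counting tool, the annotation, the treatment of reads matching several places and strandedness are not given there or in the labels. Whole reads were not recovered, so no count model was used.

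RPKM was analysed as log2(RPKM + 0.5), which compresses changes at low levels. The 12486 of 22138 genes whose mean reached 0.5 RPKM were tested with limma 3.58.1 in R 4.3.3 (mean-variance trend, 7.47 prior degrees of freedom, two-sided moderated tests), with Benjamini-Hochberg adjustment across them. The procedure was tested on simulated data in which few genes changed, whereas 67.2% of all genes tested were called here. That test therefore cannot show how calls behave in these data. Step sums and paralog shares were compared by exact permutation over the 4 libraries. SDs over 2 libraries were replaced in the text by both values.

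Gene positions come from GENCODE M21 (GRCm38) by identifier, which held 92.8% of the table's identifiers, and may differ from the mm9 models behind the values. Transcripts were compared with BLAST 2.17.0 (the longest coding transcript of each member, at least 95% identity over at least 100 bases). Promoter windows are from RefSeq (GRCm38.p6).

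The 35 members, the lists of related genes and markers, and the rule for naming genes were chosen with earlier results of these data known. By that rule every member is named, with values in each library for the highest paralog of a step and for changes of at least 0.5 on the log2 scale, and up to 4 called genes with the largest change are named from each list of related genes; an item that rule would name is not reported here. The alternatives were 0.1 or 1 RPKM added in place of 0.5, testing without a filter or from a mean of 1 RPKM up, median-ratio scaling, quantile normalization, removal of trends on GC content or length, limma without the trend, a replicate block and leaving out each library.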

Additional observations from a re-analysis of the deposited data

How the results depend on the processing

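The number of members called lower (20) stayed within 1.5 times under every alternative. The median log2 change of the members was -0.30, and it was -0.37 with an added 0.1 RPKM, -0.27 with an added 1 RPKM, -0.33 with a mean of at least 1 RPKM and -0.36 over the 25 members that share at most 20% of their transcript, of which 4 were called higher (the last alternative was chosen after seeing the data). Leaving out 1 library at a time gave medians of -0.34 to -0.28 and 5 to 10 members called higher, against 8 with all libraries; 5 were called higher without Hnrnpk siRNA replicate 2 and 10 without control siRNA replicate 1. Of the 28 called members 21 kept direction and call under each of the alternatives run, 7 lost the call at least once (Gapdh, Eno2, Pkm, Ldhb, Pfkfb3, Pfkfb4 and Taldo1) and 0 reversed. Among members not called, Hk1 had -0.036 without control siRNA replicate 2, over a range of -0.036 to 0.23 with 1 library left out, and Pgm2 had 0.14 without control siRNA replicate 1 and 0.036 without Hnrnpk siRNA replicate 2, over a range of -0.17 to 0.14. Hif1a, also not called, had -0.032 under quantile normalization, -0.11 with GC trends removed and -0.07 without Hnrnpk siRNA replicate 1, over a range of -0.07 to 0.092 with 1 library left out; the cause was not tested. The replicate numbers were not shown to pair the libraries (correlation of same-numbered deviations 0.0267, from 2 pairs), and the fit with the replicate block called 8 members higher and 20 lower, as without it. Where a library is left out, the lone library of its group is assumed to vary like the other group. Depth limits the low members most: Rpia and the Pfkfb genes stood at a few RPKM or less, and without counts no interval for counting error could be given.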

Other observations

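One renamed gene of the pathway was picked after its values were seen. Tigar, a bisphosphatase that slows glycolysis and a p53 target, is listed in the table as 9630033F20Rik, at 30.9 and 35 RPKM in the controls and at 40.3 and 43.8 RPKM after Hnrnpk siRNA (log2 change 0.35).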
